A study of Mus musculus with 2 samples.

Results

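The 10 genes described here belong to the fibroblast growth factor (FGF) pathway and were measured on a pair of mouse arrays. They are the ligand Fgf4, the receptors Fgfr1 and Fgfr2, the inhibitors Spred1, Spred2, Spry2, Spry4 and Dusp6, and the transcription factors Etv4 and Etv5. They were taken by name, as every probe set that the platform annotation assigns to exactly 1 of these symbols, which gave 10 of the 18193 genes on the array and 35 probe sets. The first of the 2 groups was lymphoma cells co-cultured with endothelial cells, which form the inner lining of vessels. The second was lymphoma cells in medium that contained serum. Each group was 1 array of total RNA, with no replicate, so no difference below has a test or a p-value, and the number of arrays limits the precision. The labels give no genotype, lymphoma line, age, source of the endothelial cells, time in culture or separation step, and they do not name the medium of the co-culture.

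An FGF ligand binds its receptor together with heparan sulphate, the receptor's tyrosine kinase is switched on, and adaptor proteins pass the signal through Ras, Raf and MEK to the kinase ERK. ERK signalling in turn raises transcription of the ETS factors Etv4 and Etv5 and of its own brakes. Sprouty and Spred proteins act on the steps at Ras and Raf, and the phosphatase Dusp6 removes the activating phosphates from ERK. Fgf4 is known mainly from the early embryo and the limb bud, and FGF signalling also takes part in the growth of blood vessels.

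The values are the authors' linear intensities, and an intensity of 44.3, the median of all values on both arrays, was used as a floor. A probe set above it on at least 1 array is called measured, and a gene is given by its brightest probe set. Differences are in log2, co-culture minus serum, and a gene counts as higher or lower from a size of 1, which is 2-fold. Where the dimmer value lay below the floor the fold is a lower bound, so a gene whose bound is under 2-fold did not reach the limit here but is not shown to lie within it. Dim values were higher in co-culture, with an array median of 50.7 in co-culture and 36.9 in serum, and 52.7% and 47.3% of probe sets above the floor. Different probe sets of the same gene disagreed with a pooled SD of 0.60 in log2 (5478 genes). This covers error that differs between probe sets of a gene. It covers neither effects shared by the probe sets of an array nor the spread between cultures.

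Most defining markers of the labelled cell types were below the floor, so the arrays are named by their labels. Of 14 leukocyte and B cell markers with a probe set, 3 were measured, and the brightest were Ebf1 (85.3 in co-culture and 161 in serum), Coro1a (125 and 75.5) and Blk (126 and 27.0). Ptprc, the CD45 antigen of white blood cells, had 3.14 in co-culture and 21.5 in serum. The intensities of these 14 summed to 497 in co-culture and 443 in serum. Of 16 endothelial markers 2 were measured, and all 16 summed to 873 in co-culture and 782 in serum. Egfl7 made up most of both sums (532 in co-culture and 473 in serum), while Flt1 had 26.4 in co-culture and 93.3 in serum and Esam 41.6 and 36.5. The endothelial cadherin Cdh5 had 44.1 in co-culture and 19.6 in serum, just below the floor, and Pecam1 had 18.4 and 21.3. Of 12 fibroblast and mural cell markers 5 were measured, with sums over the list of 539 in co-culture and 409 in serum, led by Col1a1 (81.0 in co-culture and 75.7 in serum), Pdgfra (57.4 and 92.2) and Col1a2 (64.8 and 77.4). None of the markers was listed at 0. The 3′ to 5′ intensity ratio, a sign of RNA length, was 2.05 in co-culture and 3.56 in serum for Actb, 1.88 and 2.54 for Gapdh, and 5.03 and 13.2 for Tfrc. The part of these differences in the results below was not tested.

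Past 2-fold on the higher side in co-culture were Spred2, Etv5, Fgf4 and Spry2. Their promoters are shown because these 4 genes differed the same way. Each window is the 250 bases before the annotated start, from RefSeq on GRCm38.p6, and for Etv5 it is that of the more upstream of 2 start sites. Capitals mark the motif AGGAAG on either strand, the motif for which the PEA3 group of ETS factors, with Etv4 and Etv5, is named.
Spred2 (chr11:19924192-19924441, plus strand): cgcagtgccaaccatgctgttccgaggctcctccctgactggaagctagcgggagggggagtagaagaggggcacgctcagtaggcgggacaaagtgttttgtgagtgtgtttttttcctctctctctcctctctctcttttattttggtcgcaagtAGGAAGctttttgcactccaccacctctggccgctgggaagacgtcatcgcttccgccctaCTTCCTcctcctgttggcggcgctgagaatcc
Spry2 (chr14:105896820-105897069, minus strand): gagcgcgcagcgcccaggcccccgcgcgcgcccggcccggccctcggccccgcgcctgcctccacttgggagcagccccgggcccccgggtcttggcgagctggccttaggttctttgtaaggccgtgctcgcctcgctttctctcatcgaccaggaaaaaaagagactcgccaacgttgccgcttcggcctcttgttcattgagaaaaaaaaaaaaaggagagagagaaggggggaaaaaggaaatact
Etv5 (chr16:22439571-22439820, minus strand): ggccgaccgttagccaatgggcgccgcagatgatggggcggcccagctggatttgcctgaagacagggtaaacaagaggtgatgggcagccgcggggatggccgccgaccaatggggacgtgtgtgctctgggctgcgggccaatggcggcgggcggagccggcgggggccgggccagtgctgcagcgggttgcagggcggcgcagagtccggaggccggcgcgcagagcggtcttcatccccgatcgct
Fgf4 (chr7:144861136-144861385, plus strand): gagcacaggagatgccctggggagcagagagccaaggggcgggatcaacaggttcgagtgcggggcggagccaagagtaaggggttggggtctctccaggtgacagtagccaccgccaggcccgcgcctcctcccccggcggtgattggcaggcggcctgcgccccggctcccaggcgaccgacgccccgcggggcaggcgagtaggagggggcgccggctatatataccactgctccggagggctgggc
Spred2 held the motif at 2 places, which began 93 bases (gene strand) and 32 bases (opposite strand) before the start, and the other 3 windows printed here held none. Promoters of 7 of the 10 genes were in the table, as 8 windows. AGGAAG was in 3 of them, those of Spred2, Dusp6 and Fgfr2, against 29.5% of all 32851 promoter windows of this length. Of the 4 genes past 2-fold, Spred2 was the single one with it. The longer ETS motif CCGGAAG (6.91% of all windows), the AP-1 motif TGANTCA (6.75%) and the cyclic AMP response motif TGACGTCA (1.55%), each searched on both strands, were in 0 of the 8. AGGAAG and the longer ETS motif share their last 5 bases but differ in the base before, so no match can serve for both, and AGGAAG was searched after the longer ETS motif had not been found. A match is a description of the letters and not a binding site.

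Across the 10 genes, 4 passed 2-fold on the higher side in co-culture, 0 on the lower side, 4 did not reach 2-fold and 2 were below the floor on both arrays. Among all 11559 measured genes, 4.52% passed 2-fold on the higher side and 9.97% on the lower. The members' count cannot be read as support by itself, since 3 of them (Fgf4, Etv5 and Dusp6) were above the floor in co-culture alone and could differ in no other direction, as were 9.3% of all measured genes. Etv4 was above it in serum alone. Of the 4 that did not reach 2-fold, Dusp6 and Etv4 have lower bounds just under it. The other 4 measured genes, Fgfr1, Spred1, Spred2 and Spry2, were above the floor on both arrays and had log2 differences between 0.56 and 3.84. By probe set, 17 of 35 were measured, 8 of them 2-fold or more higher and 0 lower by as much, against 8.16% higher and 8.06% lower among 21156 measured probe sets. This count is no support by itself either. Of the 17, 6 were above the floor in co-culture alone and 1 in serum alone, and probe sets of the same gene are not independent.

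**Figure D1:**
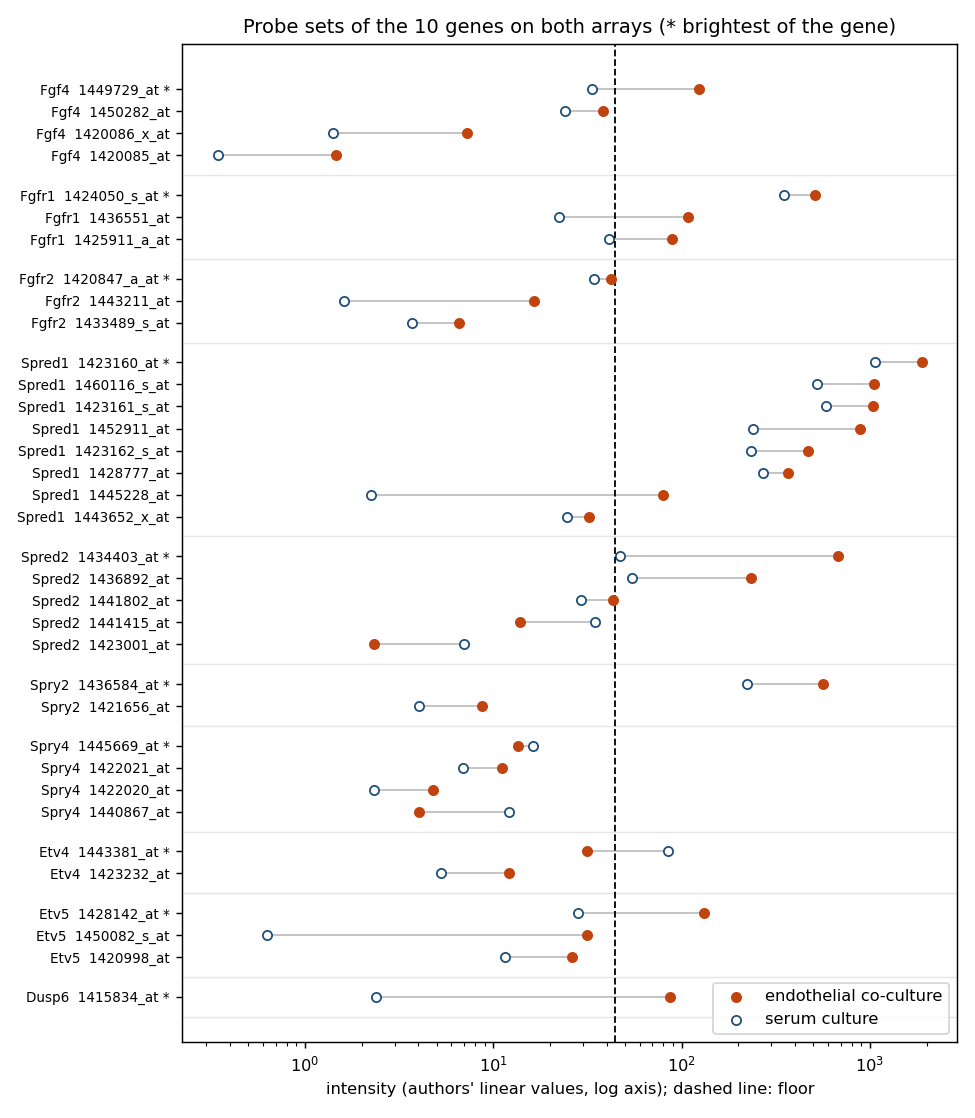
Intensity of all 35 probe sets of the 10 genes in endothelial co-culture (filled) and serum culture (open) on a log axis, with the floor of 44.3 as a dashed line and the brightest probe set of each gene starred. The Spred1 probe sets lie to the right of the floor except for 1 on both arrays and another in serum, while all probe sets of Fgfr2 and Spry4 lie to its left.

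Fgf4, the ligand, was dim on both arrays. Its brightest probe set, 1449729_at, had an intensity of 124 in co-culture and 33.4 in serum, which is at least 2.80-fold higher (log2 difference 1.49). The other 3 were below the floor on both arrays. The probe set designed on the RefSeq transcript, 1450282_at, had 38.3 in co-culture and 24.1 in serum, and the remaining pair had 7.25 and 1.46 in co-culture and 1.41 and 0.34 in serum. The call rests on 1 probe set, which shares its design accession with the dim pair. The transcription factors Pou5f1 and Sox2, known activators of Fgf4 in embryonic stem cells, were below the floor on both arrays, with 2.31 and 18.0 in co-culture and 1.86 and 21.1 in serum.

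The receptor Fgfr1 was higher in co-culture by every probe set, by an amount that differed between them. The brightest, 1424050_s_at, had 512 in co-culture and 348 in serum, 1.47-fold higher with a log2 difference of 0.56, which is within the 0.60 spread between probe sets. The other 2 lay above the floor in co-culture alone. Probe set 1436551_at had 108 in co-culture and 22.4 in serum (at least 2.44-fold), and 1425911_a_at had 88.9 and 41.3 (at least 2.01-fold). The suffix of the brightest marks sequence shared with other transcripts, and without such probe sets Fgfr1 joined the genes past 2-fold, with a log2 difference of 1.29.

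Fgfr2, the other receptor, was not above the floor on either array. Its 3 probe sets had 42.1, 16.5 and 6.62 in co-culture and 34.3, 1.62 and 3.69 in serum. No fold is given for them. As bulk values, these levels cannot tell fewer cells with a transcript from less transcript per cell, which holds for every gene here.

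Spred2, the Ras-Raf inhibitor, was higher in co-culture by both of its measured probe sets. Its brightest probe set, 1434403_at, had 673 in co-culture and 47.0 in serum, a 14.3-fold difference (log2 3.84). A second, 1436892_at, had 233 in co-culture and 54.2 in serum, 4.30-fold higher (log2 2.10). Both exceeded the spread between probe sets, and they came from different design accessions. Among 5478 genes with at least 2 measured probe sets, 4.22% had at least 2 of them 2-fold higher. Of the 3 members with at least 2 measured probe sets, 2 met this, Spred2 and Fgfr1. The Fgfr1 probe sets concerned were above the floor in co-culture alone and could differ in no other direction. The comparison is a description and no support by itself. The serum values of both lay close to the floor, so each fold depends on how well dim values are measured. The remaining 3 probe sets were below the floor on both arrays. Probe set 1441802_at had 43.2 in co-culture and 29.4 in serum, 1441415_at had 13.8 and 34.5, and 1423001_at, designed on the RefSeq transcript, had 2.32 and 6.96. No direction is read from these 3.

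Spred1, the paralog of Spred2, had the most probe sets of the 10 genes, with 7 of 8 measured. The brightest, 1423160_at, had 1895 in co-culture and 1064 in serum, 1.78-fold higher with a log2 difference of 0.83. All 7 measured probe sets were higher in co-culture, by log2 differences between 0.45 and 1.88 with a median of 0.84. Among 435 genes with at least 5 measured probe sets, 19.5% had all of them higher in co-culture, a comparison chosen after the values were seen. Probe set 1452911_at, the single one past 2-fold, had 880 in co-culture and 239 in serum (3.69-fold). Probe sets 1423162_s_at (467 in co-culture and 234 in serum) and 1460116_s_at (1046 and 524) fell just short of 2-fold. Several share a design accession, so the 7 are not independent. The differences thus had a single direction across the gene and were mostly under 2-fold.

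Spry2 encodes a Sprouty protein, a feedback inhibitor of receptor tyrosine kinase signalling. Probe set 1436584_at had 562 in co-culture and 222 in serum, 2.53-fold higher with a log2 difference of 1.34. Both arrays were well above the floor there. The other probe set, designed on the RefSeq transcript, was below it on both, with 8.73 in co-culture and 4.04 in serum. Spry4, a second Sprouty gene, was not measured by any of its 4 probe sets, the highest of which had 13.5 in co-culture and 16.2 in serum. No fold or direction is given at these levels.

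Dusp6, the ERK phosphatase, had a single probe set, with 87.0 in co-culture and 2.38 in serum. The gene was at least 1.96-fold higher (log2 difference 0.97), a lower bound because the serum value was set to the floor, and its size is open upward. With a floor at percentile 25 of all values the log2 difference was 2.76, and Dusp6 then passed 2-fold.

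The ETS factors Etv5 and Etv4, which belong to the same group and are both induced by FGF signalling, differed in opposite directions. Each direction rests on 1 probe set that was above the floor on 1 array alone. Etv5 had 131 in co-culture and 28.1 in serum by its brightest probe set, 1428142_at, at least 2.97-fold higher (log2 difference 1.57). Its other 2 probe sets stayed below the floor, with 31.5 and 26.1 in co-culture and 0.63 and 11.6 in serum. No direction is read from these 2. Etv4 had 31.5 in co-culture and 84.3 in serum by 1443381_at, at least 1.90-fold lower (log2 difference -0.93). It was the 1 measured gene of the 10 with a lower value in co-culture. Its other probe set, at 12.2 in co-culture and 5.26 in serum, was below the floor on both.

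**Figure D2:**
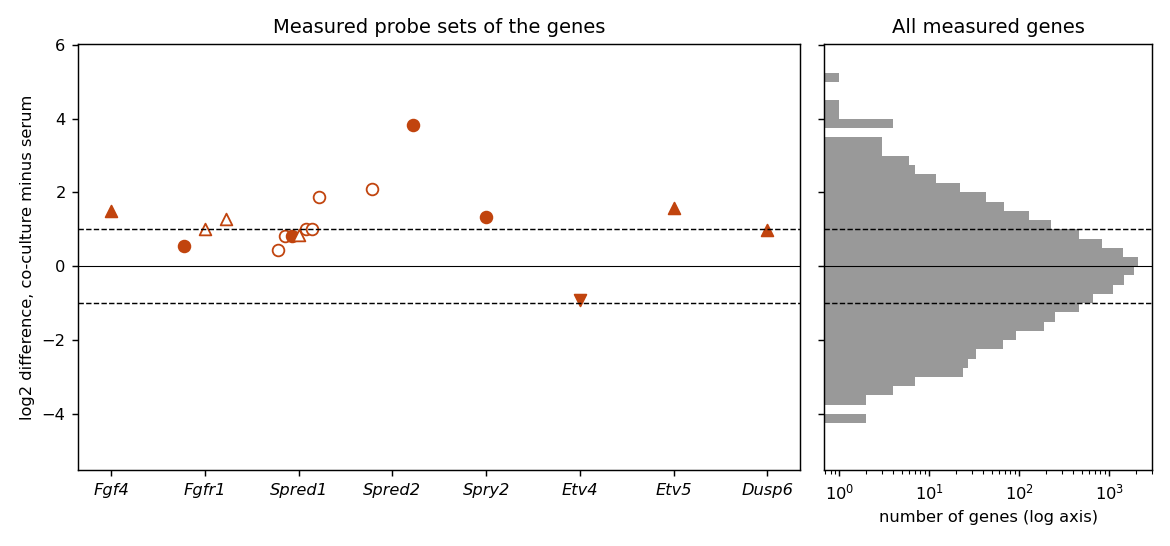
Left, log2 difference (co-culture minus serum) of the 17 measured probe sets, with the brightest of each gene filled and lower bounds drawn as triangles that point in the direction of the bound. Right, the same quantity for all 11559 measured genes on a log count axis; 16 of the 17 probe sets lie above 0, and Etv4 lies below it.

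Most other genes of the FGF family were below the floor, and the measured ones were not higher as a group. Of 21 such genes 7 were measured, of which 0 passed 2-fold on the higher side and 2 on the lower. The median log2 difference was -0.45 against -0.06 for all measured genes. The list includes intracellular relatives such as Fgf12 and Fgf13, both lower in co-culture, so its counts and median are not those of ligands alone. The values of Fgf1, Fgf3, Fgf12, Fgf13 and Fgf18 are lower bounds, on the higher side for Fgf3 and Fgf18 and on the lower side for the others. Fgf9, a ligand of many epithelia, had 61.7 in co-culture and 147 in serum (2.39-fold lower), and a further probe set gave a log2 difference of -1.77. Fgf13, an intracellular relative that does not act through FGF receptors in the usual way, had 34.6 in co-culture and 91.3 in serum (at least 2.06-fold lower). Of the 21, 14 were below the floor on both arrays.

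Of the 5 other receptor and Klotho coreceptor genes, 4 were measured and 0 reached 2-fold (median 0.27), with lower bounds for the coreceptors Kl and Klb. Fgfr3 had 273 in co-culture and 138 in serum, a log2 difference of 0.98, with 0.62 by a further probe set. Fgfrl1, a receptor-like protein with no kinase, had 395 in co-culture and 579 in serum (-0.55).

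Genes of heparan sulphate, the sugar chain that FGF ligands need to bind, had a median near 0 (0.03) with 1 of 13 measured higher and 1 lower. The values of Sdc2 and Gpc3 are lower bounds. Further probe sets passed 2-fold for Sulf2 (-1.49 and -1.04, against 0.55 by the brightest), Sdc4 (-1.14 against -0.83) and Hspg2 (1.09 against -0.05). Ndst2, which removes acetyl groups and adds sulphate to the chain, had 267 in co-culture and 67.8 in serum (3.93-fold higher). Hs6st2, a 6-O-sulphotransferase of the same pathway, had 413 in co-culture and 1229 in serum (2.98-fold lower). These enzymes of chain sulphation therefore differed in opposite directions.

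Few genes of the steps between receptor and ERK reached 2-fold by their brightest probe sets. Of 9 measured genes of adaptors and of enzymes that act with them at the receptor, 1 was higher and 0 lower, with a median of 0.03. Crkl, an adaptor that links phosphorylated proteins to exchange factors for small GTPases, had 301 in co-culture and 126 in serum (2.38-fold higher), and a further probe set gave 2.25 on the log2 scale. The phosphatase gene Ptpn11, of the same list, had a log2 difference of -0.01 by its brightest probe set, but 1.48 and 2.57 by further ones. Of 7 measured genes of the RAS-RAF-MEK-ERK core 0 reached 2-fold (median -0.07), with a bound for Ksr1. The largest differences were those of the kinase Braf (836 in co-culture and 562 in serum, log2 0.57) and the GTPase Nras (2589 and 1918, log2 0.43). Further probe sets ranged from 0.03 to 1.28 for Braf and from -0.75 to 1.28 for Araf, so these values depend on the choice of probe set.

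Of 13 measured genes among other feedback inhibitors and regulators of the pathway, 1 was at least 2-fold higher and 0 lower, with a median of 0.35. Not all of them are known as feedback inhibitors, Rasa1 and Ptpn1 among the exceptions. A difference above 0 was seen in 12 of them, against 45.9% of all measured genes. That count is a description, since Dusp4 and Il17rd were above the floor in co-culture alone and could differ in no other direction, and further probe sets of Lrig1, Rasa1 and Ptpn1 gave values below 0. Dusp9, an ERK phosphatase close to Dusp6, had 2774 in co-culture and 1247 in serum (2.22-fold higher), and its further probe sets gave log2 differences of 1.28 and 1.44. Cbl had a log2 difference of 0.52 by its brightest probe set, and its further ones reached up to 1.34. The phosphatases Dusp4, Dusp5 and Dusp7, chosen after their values were seen, did not reach 2-fold by their brightest probe sets. Dusp4 had 83.5 in co-culture and 11.0 in serum (log2 difference at least 0.91), Dusp5 had 329 and 191 (0.79), and Dusp7 had 1472 and 838 (0.81, or 1.30 by a further probe set).

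Of 17 measured genes known to respond to ERK, 2 were at least 2-fold higher and 0 lower, with a median of 0.23. Fosl1, an AP-1 subunit, had 107 in co-culture and 0.73 in serum (at least 2.42-fold higher). Ier3, an early response gene, had 1850 in co-culture and 916 in serum (2.02-fold higher). The remaining 15 did not reach 2-fold by their brightest probe sets, with lower bounds for Egr3 and Ets1. A further probe set of Elk4 gave a log2 difference of 1.43, against 0.33 by the brightest.

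**Figure D3:**
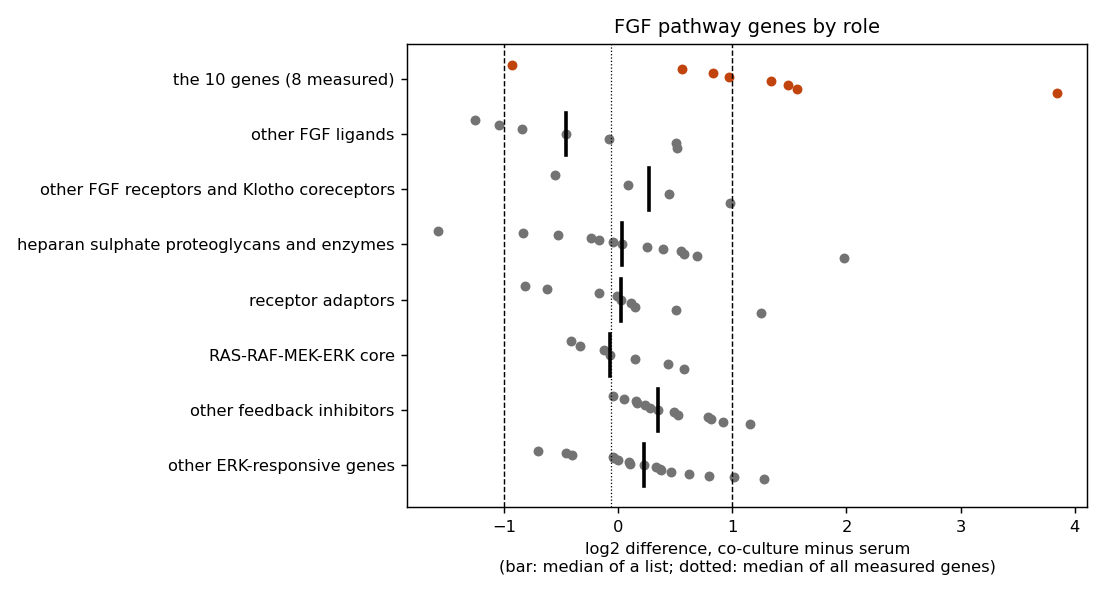
Log2 difference (co-culture minus serum) of each measured gene by role, with a bar at the median of each list other than the 10 genes themselves, the dotted line at the median of all measured genes (-0.06) and dashed lines at 2-fold. Values of genes below the floor on 1 array are drawn at their lower bound. The medians are 0.35 for the list of other feedback inhibitors and -0.45 for that of other FGF ligands. The first list also holds genes not known as feedback inhibitors, and the second holds intracellular relatives of the ligands.

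The value of each gene depended in part on the processing. Spred1 kept log2 differences between 0.64 and 0.89 under all 10 alternatives, and Etv4 stayed below 0 in all 8 in which it was measured. The sign of Etv4 had little room to change, since it was above the floor in serum alone. Spred2 lay between 0.79 and 3.90, with its lowest value at the floor of percentile 75, an intensity of 389. Averaging over probe sets brought Fgf4 to 0.37, Etv5 to 0.52 and Spry2 to 0.67, since their dim probe sets then count, and Spred2 was the 1 gene of the 10 still past 2-fold. Scaling to the hybridisation spikes moved the median of all measured genes from -0.06 to -0.25. It moved the share of higher among all calls from 31.2% to 18.0%, and Fgf4, Spred2, Spry2 and Etv5 remained past 2-fold.

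**Figure D4:**
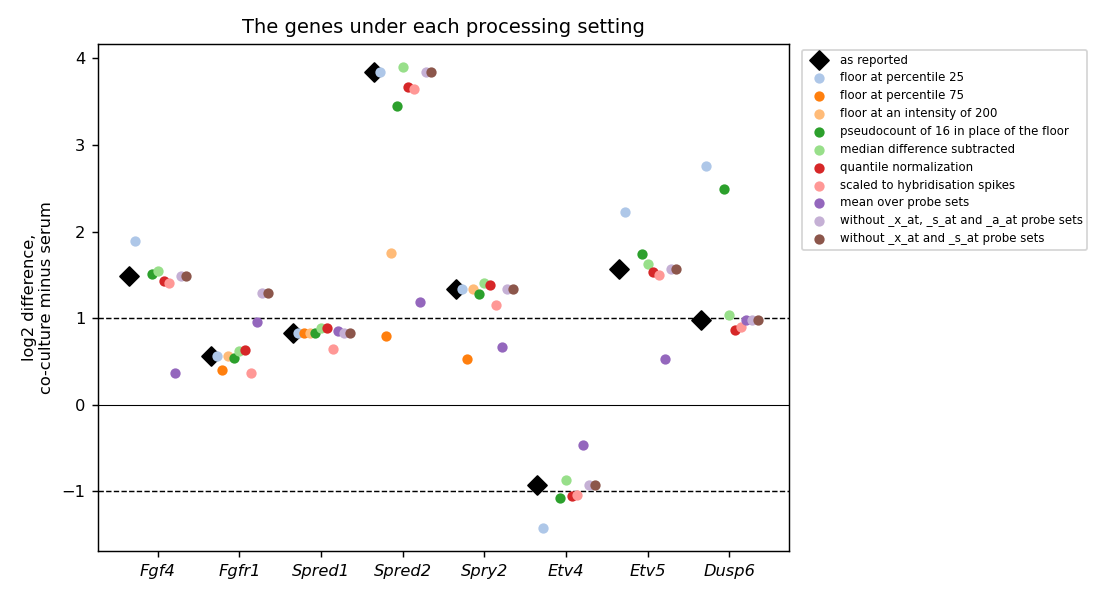
Log2 difference (co-culture minus serum) of the 8 measured genes as reported (diamonds) and under each of 10 alternative settings (circles), with dashed lines at 2-fold. No gene crosses 0, and the Spred1 values span 0.64 to 0.89 while those of Spred2 span 0.79 to 3.90.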

How the data were processed

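Total RNA was purified with a column kit, reverse-transcribed from an oligo(dT) primer with a T7 promoter and transcribed into biotin-labelled cRNA, per the labels' protocols. The deposited values are a linear intensity per probe set (45101 on each of 2 arrays). How the authors corrected background and normalized is not given in the sources used here. The pooled median of all values (44.3) served as a floor. Apart from the hybridisation spikes, 27 bacterial control probe sets reached at most 21.7 in co-culture and 21.6 in serum. The spikes used for scaling were a separate set of 18 probe sets. Probe sets with exactly 1 symbol were named through the platform annotation, 34741 of 34945 through the gene number in RefSeq (GRCm38.p6); the 64 control probe sets were left out. Some genes of the lists had no probe set with a name here and were not analysed. Named genes were all 10 members and, from each list, up to 4 past 2-fold or else the 2 with the largest difference, Pou5f1 and Sox2, and up to 3 brightest markers. Ptprc, Cdh5, Pecam1, Dusp4, Dusp5 and Dusp7 fall outside this. So do genes named for a bound (Fgf1, Fgf3, Fgf12, Fgf18, Sdc2, Gpc3, Kl, Klb, Ksr1, Egr3, Ets1 and Il17rd). Others outside it were named for their further probe sets (Ptpn11, Araf, Sulf2, Sdc4, Hspg2, Lrig1, Rasa1, Ptpn1, Cbl and Elk4). With 2 samples no gene can be called alike in pattern. The members and lists were chosen with earlier results of these data known. Log2 differences were computed in Python 3.11.15 with pandas 2.3.3, and the steps were tested on simulated data. The 10 alternatives changed the floor, the scaling or the choice of probe sets.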

Additional observations from a re-analysis of the deposited data

How the results depend on the processing

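No paired analysis was possible because each group is 1 array. As reported, 4 of the 10 genes were at least 2-fold higher and 0 lower, and 523 of all measured genes were higher and 1152 lower. The floor at percentile 75 left 0 of the 10 higher, with 143 higher and 397 lower of all genes. The floor at 200 left 2 (Spred2 and Spry2), with 218 and 656, and the mean over probe sets left 1 (Spred2), with 653 genes lower. The floor at percentile 25 gave 2029 higher and 1599 lower genes, so that 55.9% of calls were higher, against 31.2% as reported, and 12.6% of measured genes were higher, against 4.52%. The pseudocount of 16 gave 853 higher and 1203 lower. Both put Dusp6 past 2-fold on the higher side and Etv4 past 2-fold on the lower side. Quantile normalization and spike scaling put Etv4 past 2-fold on the lower side (-1.06 and -1.04), but left Dusp6 short of it (0.86 and 0.90). Subtracting the median difference put Dusp6 past 2-fold (1.03) and Etv4 not. Fewer probe sets clear a higher floor. Of 72 values of single genes, 60 moved by less than the 0.60 spread between probe sets, 12 moved by more and 0 changed sign. The signs of Fgf4, Etv4, Etv5 and Dusp6 had little room to change, since each gene was above the floor on 1 array alone. These genes were not measured at the floors of percentile 75 and 200. Signal close to the floor limits Fgf4, Etv4, Etv5 and Dusp6, and the serum value of Spred2.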

Other observations

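Of the 5 probe sets of the 10 genes that list a RefSeq mRNA as their design accession, 1 (Dusp6) was measured, while 16 of the 30 designed on another accession were. Over all named probe sets the shares measured were 57.9% and 61.1%. The comparison was made after the values were seen. The RNA-binding gene Lin28a, of the pluripotency list, had 534 in co-culture and 59.4 in serum (8.98-fold higher, and 3.47 on the log2 scale by a further probe set). Of the 18 genes of that list 6 were measured, 1 of them higher and 0 lower, with a median of 0.29.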
